A study of Mus musculus with 3 samples.

Results

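The 1346 regions described here are Foxp4 ChIP-seq peaks of mouse beige adipocytes that lie in gene deserts. They overlap no called peak of acetylation of lysine 27 of histone H3 (H3K27ac). Below, without H3K27ac means that no such peak was called there, which does not show that the mark was absent. The regions make up 7.95% of the 16938 deposited Foxp4 peaks. They were chosen by the deposited annotation and by their position: on chromosomes 1 to 19, annotated as intergenic, with a peak centre more than 100000 bp from the nearest transcription start site (TSS), outside any annotated repeat, and sharing no base with any of the 17564 H3K27ac peaks. Of 7606 intergenic Foxp4 peaks on these chromosomes, 2532 lay beyond 100000 bp. Of those, 1142 fell in repeats and were left out, which gave 1390. A further 44 overlapped an H3K27ac peak and were left out too. Distance to the TSS and absence of a called H3K27ac peak are therefore the basis of the choice, and neither is a result.

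Beige adipocytes are fat cells with thermogenic capacity that arise within white fat. The cells came from the stromal-vascular fraction (SVF) of inguinal white adipose tissue (iWAT) of C57BL/6 mice. They were expanded in DMEM with 20% serum, at first for 3 days, until confluent. Differentiation was started over 48 h in 10% serum with insulin (5 µg/ml), isobutylmethylxanthine (0.5 mM), dexamethasone (1 µM), T3 (50 nM) and troglitazone (5 µM), followed by 6 days with insulin, T3 and troglitazone. The same culture text applies to all 3 libraries: input DNA, Foxp4 ChIP and H3K27ac ChIP. The labels give no genetic change, no age or sex of the mice, and do not say how many animals were pooled. With 1 library per antibody there was no replicate, so no p-value is given, and every interval below is a 95% interval that covers counting error only. As a check of the cell label, 21 of 41 adipocyte genes (51.2%) had an H3K27ac peak within 1000 bp of the TSS, called a promoter peak below. This held for the general fat cell genes Pparg, Cebpa, Plin1, Lipe, Lpl and Cd36, and not for Adipoq, Fabp4, Lep or Cebpb. None of the thermogenic genes on the list had one: Ucp1, Cidea, Prdm16, Dio2, Elovl3, Cox8b, Adrb3 and Ppargc1a all lacked it. The list also holds progenitor and insulin signalling genes, so 51.2% is not a share of fat cell markers alone. Among these, Pdgfra, Zfp521, Insr, Irs1, Irs2 and Foxo1 had a promoter peak, and Pdgfrb and Dlk1 had none. The share over all 20665 RefSeq protein-coding genes of these chromosomes was 26.2%.

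Foxp4 is a forkhead transcription factor of the Foxp group, whose members bind DNA as dimers and are known mainly as repressors. H3K27ac marks active promoters and enhancers. Gene deserts are long stretches without protein-coding genes. Many flank genes of development and neural adhesion, and some hold enhancers that act over long distances. A peak in such a place is a region of enriched DNA in the ChIP library, and no target gene is known for it. The nearest gene is used below only as an address.

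The deposited annotation set these peaks apart from every TSS it held. In RefSeq (GRCm38.p6, which is mm10), 1122 of 1346 (83.4%) overlapped no gene body, 170 (12.6%) overlapped a long noncoding RNA (lncRNA) gene and 41 (3.05%) a protein-coding gene. Upstream of the nearest TSS lay 665 peaks, and 681 lay downstream. In 6 cases a peak reached into the window from 250 bases before to 50 bases after the start of a RefSeq lncRNA gene. The sequences that follow are the bases shared by peak and window for 4 of these. RefSeq sequence was at hand for all 6, and the 4 shown include Gm31064 and Gm34992, the ones with a C/EBP match. They are written 5′ to 3′ on the strand of the lncRNA, and capitals mark a match to the C/EBP core TTGCNNAA on either strand.
Gm31064: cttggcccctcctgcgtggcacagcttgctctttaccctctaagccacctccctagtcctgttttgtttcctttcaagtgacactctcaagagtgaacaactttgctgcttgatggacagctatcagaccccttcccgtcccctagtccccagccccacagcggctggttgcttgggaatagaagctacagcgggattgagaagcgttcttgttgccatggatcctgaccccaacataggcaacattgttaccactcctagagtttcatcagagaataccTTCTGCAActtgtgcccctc
Gm34992: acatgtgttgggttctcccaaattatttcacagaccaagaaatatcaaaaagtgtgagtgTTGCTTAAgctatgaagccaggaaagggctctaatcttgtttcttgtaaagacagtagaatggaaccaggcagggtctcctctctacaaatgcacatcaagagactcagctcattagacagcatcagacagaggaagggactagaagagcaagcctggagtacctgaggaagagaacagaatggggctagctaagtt
Gm31912: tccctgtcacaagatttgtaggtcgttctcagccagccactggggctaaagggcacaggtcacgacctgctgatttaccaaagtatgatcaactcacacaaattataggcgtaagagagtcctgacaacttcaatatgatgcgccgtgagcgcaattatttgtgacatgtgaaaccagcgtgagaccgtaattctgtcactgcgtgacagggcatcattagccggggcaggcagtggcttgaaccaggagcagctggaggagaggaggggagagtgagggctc
BC002059: gatctagaataggtgtgcgtctagattgga

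The Gm31064 stretch lies at chr12:82478417-82478716 (mm10, minus strand), 138428 bp from the TSS of Rgs6, a regulator of G protein signalling, and covers the whole window. The peak had a score of 34. The Gm34992 stretch is chr1:90337524-90337780 (plus strand), 133689 bp from Ackr3, a chemokine scavenger receptor, in a peak of score 28. The Gm31912 stretch is chr19:56105579-56105861 (plus strand), in a peak of score 27 whose nearest annotated gene was Habp2. The BC002059 stretch is chr17:16951286-16951315 (plus strand), only 30 bases of a peak of score 48. Of all 6 windows, Gm31064 and Gm34992 held the C/EBP core, which 10.8% of 32851 RefSeq promoter windows of 300 bases contained. None of the 6 held the forkhead core (TGTTTAC or TATTTAC, either strand; 6.54% of windows) or the AP-1 site TGACTCA (5.20%). With 6 windows, these counts describe single sequences and give no share.

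The score is the deposited value of each peak, a whole number of at least 20 whose scale is not stated. It can be compared only within the Foxp4 list. The median score of the desert peaks was 27 (quartiles 23 and 34, range 20 to 74), the same as over all 16938 Foxp4 peaks. Their median width was 344 bp (interval 339 to 349, range 283 to 923), against 354 bp (352 to 355) over all. A score of at least 49 was reached by 39 (2.90%, interval 2.07 to 3.94), against 4.51% (4.20 to 4.83) of all Foxp4 peaks. The scores fell on a few values rather than on a continuum: 257 peaks (19.1%) had a score of 21, 424 (31.5%) of 27, 285 (21.2%) of 34, 106 (7.88%) of 41, 26 (1.93%) of 49 and 8 (0.594%) of 57. A score was called recurrent when at least 100 Foxp4 peaks held it and it was over 3 times as frequent as either neighbouring whole number. These 6 values are the recurrent ones, and 1106 desert peaks (82.2%, interval 80.0 to 84.2) stood on them, against 73.1% (72.5 to 73.8) of all Foxp4 peaks.

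**Figure D1:**
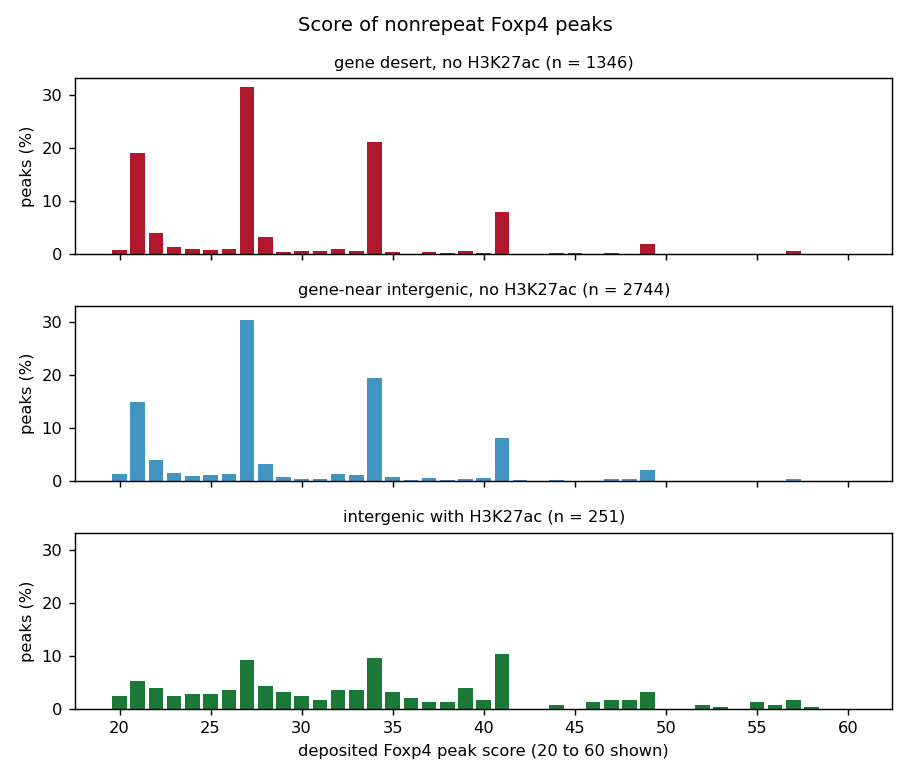
Share of peaks (y axis, %) at each deposited score (x axis, 20 to 60 shown) for desert peaks without H3K27ac, for intergenic peaks within 100000 bp of a TSS without H3K27ac, and for intergenic peaks with H3K27ac, all outside repeats. Desert peaks pile up at 21, 27, 34 and 41 with little between, while the acetylated peaks are spread over the scores.

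The other intergenic peaks without H3K27ac, 2744 peaks nearer to a TSS and outside repeats (gene-near below), had the same median score of 27 but stood less often on recurrent scores (75.8%, interval 74.2 to 77.4). The 4767 intronic peaks without H3K27ac gave 73.9% (interval 72.6 to 75.1). The 251 intergenic peaks that overlapped H3K27ac, at any distance from a TSS, had a median score of 33 (interval 31 to 34), a median width of 395 bp (interval 376 to 418) and only 39.0% on recurrent scores (interval 33.0 to 45.4). The intervals of desert and acetylated peaks did not overlap in any of these 3 measures. Of the acetylated peaks, 10.8% (interval 7.21 to 15.3) reached a score of 49. Within the deserts, the 44 peaks with H3K27ac had a median score of 34 (interval 32 to 35), a median width of 419.5 bp (interval 381 to 489) and 52.3% on recurrent scores (interval 36.7 to 67.5). The 1126 desert peaks in repeats and without H3K27ac were close to the members in score and width, with medians of 27 and 344 bp. Of these, 87.8% (interval 85.8 to 89.7) stood on recurrent scores.

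Within the deserts, the share on recurrent scores was larger at greater distance. From 100000 to 200000 bp it was 78.6% of 608 peaks (interval 75.1 to 81.8), from 200000 to 500000 bp 82.9% of 516 (79.4 to 86.1), from 500000 bp to 1 Mb 89.6% of 173 (84.1 to 93.7), and beyond 1 Mb 91.8% of 49 (80.4 to 97.7). The median score was 27 in each of these bands, while the highest score was 74, 58, 49 and 41. The median width was 348, 341, 337 and 329 bp in the same order. The bands hold unequal numbers, and a highest value depends on the number. How the recurrent scores arose was not tested.

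The highest-scoring desert peaks lay at several loci. The highest, with a score of 74, lay at chr12:52315426-52315818, 165 kb from the noncoding gene Gm35135. A score of 58 was found at chr14:58508735-58509054, 436 kb from Fgf9, a secreted fibroblast growth factor, and 4.99 kb from an H3K27ac peak. The 8 peaks with a score of 57 included chr15:42330043-42330446, 347 kb from Angpt1, a ligand of the endothelial receptor Tek. Others were 219 kb from Noct, a rhythmic phosphatase, and 178 kb from Pdzrn3, a ubiquitin ligase. These high-scoring peaks were 23.4 to 311 kb from H3K27ac for Pdzrn3, Noct and Angpt1. For comparison, the highest-scoring acetylated desert peak had a score of 74 and lay 257 kb from Rps24.

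The widest peak, 923 bp with a score of 41, was at chr4:56005383-56006305, 473 kb from Klf4, a zinc finger factor of many epithelial and mesenchymal cells. A peak of 914 bp and the same score lay 222 kb from Rreb1, a Ras-responsive repressor. The peak farthest from any TSS had a score of 22 and lay 2.01 Mb from Lrrc4c, a postsynaptic adhesion gene. It was followed by peaks 1.93 Mb from Olfm4, 1.74 Mb from Cntnap5a, 1.69 Mb from Slc10a2 and 1.67 Mb from D3Ertd751e, with scores of 28, 27, 27 and 34. None of these 5 had a protein-coding gene within 500 kb. At the inner edge of the choice, the 3 nearest peaks lay 100243, 100404 and 100442 bp from a TSS with scores of 27, 22 and 37. The 3 just outside it, at 99840, 99616 and 99517 bp, had scores of 21, 34 and 34.

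Most desert peaks were far from any called H3K27ac peak. The median distance to the nearest H3K27ac peak was 171256 bp (interval 156233 to 197294; quartiles 60983 and 464609; range 2 to 5157126). For gene-near intergenic peaks without H3K27ac it was 40850 bp (interval 38333 to 43687), and for intronic ones 33897 bp (interval 31645 to 36520). The distance is not particular to the members: desert peaks in repeats without H3K27ac had a longer median, 253492 bp (interval 231866 to 280302). An H3K27ac peak lay within 10000 bp of 102 desert peaks (7.58%, interval 6.22 to 9.12), against 20.9% (19.4 to 22.5) of the gene-near intergenic peaks. For desert peaks in repeats that share was 4.80% (3.62 to 6.21). Within 1 Mb an H3K27ac peak was present for 1218 members (90.5%, interval 88.8 to 92.0). The median rose from 115072 bp in the innermost distance band to 226757, 621927 and 973573 bp in the outer ones. Many H3K27ac peaks lie at promoters, so the rule on distance to the TSS also bears on this measure and on the gene counts that follow.

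**Figure D2:**
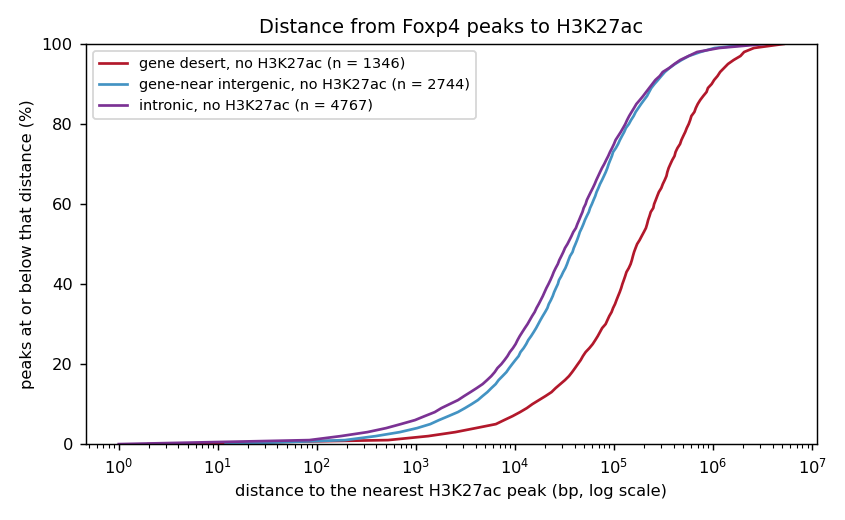
Share of peaks (y axis, cumulative %) at or below a given distance to the nearest H3K27ac peak (x axis, bp, log scale) for desert, gene-near intergenic and intronic Foxp4 peaks without H3K27ac and outside repeats. The desert curve lies to the right of the others, with a median of 171256 bp against 40850 and 33897 bp.

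A small set of desert peaks nevertheless lay at the rim of an H3K27ac peak: 23 (1.71%) were within 1000 bp of one. The closest was 2 bp away, at chr13:5346696-5346990 near the noncoding gene 1700016G22Rik. A peak of score 49 was 6 bp from H3K27ac, 128 kb from Daam1, a formin that organises actin. A peak of score 45 was 38 bp away near Pgrmc2, a haem-binding membrane protein. At Ghr, the growth hormone receptor gene, a peak of score 52 at chr15:3707891-3708187 lay 206 bp from H3K27ac and 125 kb from the TSS. Near Pde3a, a cAMP phosphodiesterase gene, a member of score 34 was 171 bp from an H3K27ac peak of 1109 bp, and that same acetylated stretch held another Foxp4 peak of score 57. A peak of score 21 lay 328 bp from H3K27ac and 244 kb from Pik3r1, a regulatory subunit of phosphoinositide 3-kinase. The 1 member annotated as a CpG island, chr4:32239582-32240256 with a score of 27, was 205 bp from H3K27ac and overlapped the RefSeq body of Bach2. Leaving these 23 out gave 1323 peaks and a median distance to H3K27ac of 180268 bp.

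The surroundings were poor in genes. The median number of protein-coding genes within 500 kb to each side was 2 (quartiles 1 and 5, range 0 to 24), against 9 for gene-near intergenic peaks. Among other peaks beyond 100000 bp the difference was smaller: the 44 acetylated desert peaks had a median of 4 (interval 3 to 5) and desert peaks in repeats had 2. Distance was not matched. The upper quartile of distance to the TSS was 230097 bp for acetylated desert peaks and 399084 bp for members. Members from 100000 to 200000 bp also had a median of 4 genes. No protein-coding gene lay within 500 kb of 247 members (18.4%, interval 16.3 to 20.5). This share was 0.729% (0.446 to 1.12) for gene-near peaks and 22.9% (20.5 to 25.5) for desert peaks in repeats. The nearest annotated gene was protein-coding for 913 members (67.8%), noncoding for 399 (29.6%) and a pseudogene for 34 (2.53%). Foxp4 peaks were also sparse there: the nearest other Foxp4 peak was at a median of 58783 bp (interval 51650 to 63051), against 32574 bp (30921 to 34534) for gene-near peaks. Desert peaks in repeats gave 72614 bp (65223 to 83128). Another Foxp4 peak within 10 kb was present for 189 desert peaks (14.0%, interval 12.2 to 16.0) and for 576 of the 2744 gene-near ones (interval 19.5 to 22.6%).

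**Figure D3:**
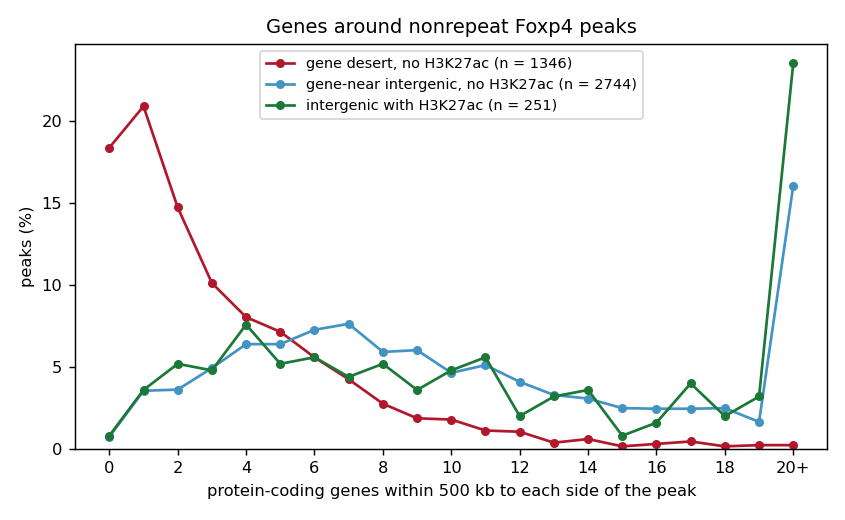
Share of peaks (y axis, %) by the number of protein-coding genes within 500 kb to each side (x axis; the last point groups 20 or more). Desert peaks have a median of 2 genes and 18.4% have 0, while the gene-near peaks (median 9) and the acetylated intergenic peaks at any distance from a TSS have more.

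By chromosome, the members took between 2.82% and 12.1% of the Foxp4 peaks. The lowest shares were on chromosome 19 (14 of 496 peaks, interval 1.55 to 4.69), chromosome 11 (45 of 1087, 4.14%, 3.04 to 5.50) and chromosome 17 (4.93%, 3.42 to 6.86). The highest were on chromosome 12 (92 of 759, interval 9.88 to 14.7), chromosome 8 (97 of 869, 11.2%, 9.15 to 13.4) and chromosome 13 (10.8%, 8.86 to 13.1). The upper 3 and the lower 3 were picked by these same shares, so the gap between them is no separate result. The rule on distance to the TSS also bears on the share of each chromosome.

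**Figure D4:**
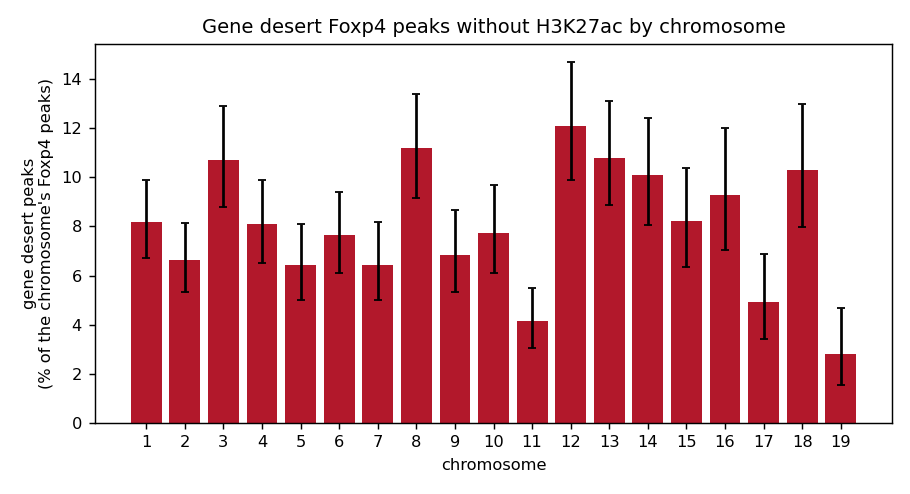
Desert peaks without H3K27ac as a share of all Foxp4 peaks of each chromosome (bars, %), with exact 95% binomial intervals (error bars, counting error only). Chromosomes 19, 11 and 17 are lowest and chromosomes 12, 8 and 13 highest.

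The members were then counted by desert. Between neighbouring named protein-coding genes, 1409 spans exceeded 200 kb, of which 598 held a member and 811 held none. The median span was 0.426 Mb long. A span just over 200 kb with a TSS at each end has almost no sequence that meets the distance rule, so some empty spans follow from the rule. Spans are bounded by gene bodies, so beside the 3′ end of a gene the TSS lies farther off and shorter spans can qualify. The span of 0.0834 Mb between Kif6 and Rftn1, for example, held 2 members. Over these spans there were 1.28 members per Mb (interval 1.21 to 1.36). Counting spans of any length, 638 held 1310 of the members: 350 spans held 1 and 288 held at least 2. The 52 spans with at least 5 members held 340 (25.3%). In 273 of the 638 spans that held a member no H3K27ac peak was called, and these contained 455 members (33.8%). Some of these spans are short, and spans without a member were not counted in this way. The number is therefore no result about the members. The 11 spans with at least 8 members are described next, and that number was set after the values were seen.

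The largest group was between Zeb2, a zinc finger repressor of mesenchymal and neural cells, and Acvr2a, an activin receptor. This span of chromosome 2 is 3.70 Mb long and held 16 members with scores of 20 to 41, among 31 Foxp4 and 22 H3K27ac peaks. Of the 16, 10 lay within the first 0.895 Mb from Zeb2, 4.26 to 142 kb from H3K27ac. The span of 1.21 Mb between Klf4 and Actl7b, a testis actin-related gene, was the densest of the 11, with 12 members or 9.94 per Mb. It held 21 Foxp4 and 15 H3K27ac peaks. The 6 members nearest to Klf4 had scores of 41, 27, 27, 21, 41 and 29 at 151, 215, 265, 472, 473 and 591 kb, and those nearest to Actl7b had 21, 34, 27, 49, 45 and 27. All 12 had H3K27ac between 9.79 and 97.8 kb away, so this desert mixed sites with and without a called H3K27ac peak.

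Upstream of Nr2f2, which encodes the nuclear receptor COUP-TFII, the 1.71 Mb up to Mctp2 held 11 members, 18 Foxp4 peaks and only 2 H3K27ac peaks. The 6 nearest to Nr2f2 had scores of 28, 27, 34, 27, 41 and 28 at 114, 209, 364, 449, 461 and 495 kb, and H3K27ac lay 115 to 432 kb away. The Fgf9 to Rcbtb1 span (1.09 Mb, 8 members, 3 H3K27ac peaks) held the highest-scoring members of the 11. At Fgf9 the scores were 49, 34, 27, 58, 21 and 27 at 212, 332, 426, 436, 439 and 482 kb, and 3 of these peaks were within 4.45 to 7.74 kb of H3K27ac. Between Plpp3, a lipid phosphatase, and Usp24, a deubiquitinase, 1.08 Mb held 9 members (8.31 per Mb) and 14 H3K27ac peaks.

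In the Flrt2 and Pcdh7 spans no H3K27ac peak was called. Between Sel1l, a component of endoplasmic reticulum protein degradation, and Flrt2, a fibronectin leucine-rich transmembrane protein, 3.84 Mb of chromosome 12 held 11 members and 0 H3K27ac peaks. Their scores were 21 to 34, and the nearest H3K27ac peak was 227 to 1925 kb away. Between Pcdh7, a protocadherin, and G6pd2, 3.68 Mb held 8 members with scores of 21 to 34 and 0 H3K27ac peaks. In the 3.51 Mb between Slc10a2, the ileal bile acid transporter, and Efnb2, ephrin B2, there were 10 members and 5 H3K27ac peaks. The remaining spans of this size were Adgrb3 to Phf3, Nmbr to Cited2 and Zfp996 to Asap2, with 8 members each and 2, 8 and 10 H3K27ac peaks. Members of the Flrt2, Pcdh7 and Efnb2 spans scored at most 34, although other Foxp4 peaks of the Flrt2 and Pcdh7 spans, which the rule left out, reached 55 and 49.

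**Figure D5:**
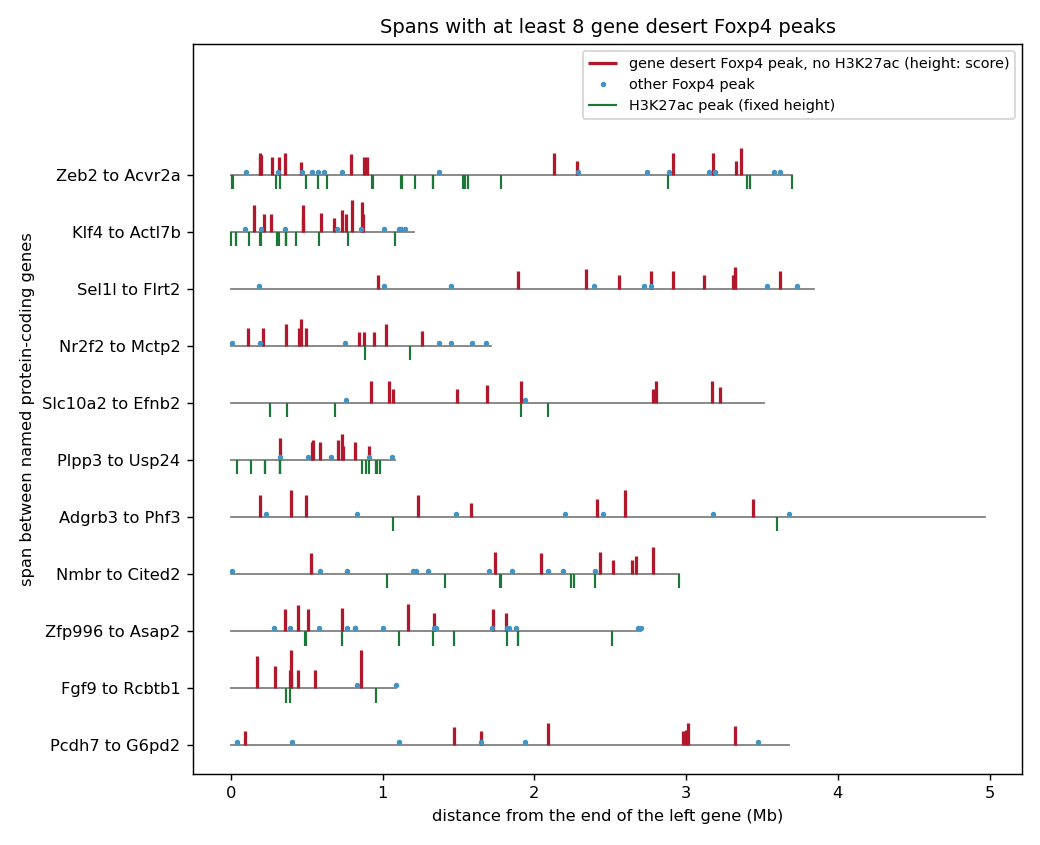
The 11 spans between named protein-coding genes with at least 8 members, drawn as distance from the end of the left gene (x axis, Mb). Red bars are members with a height in proportion to the score, blue dots are other Foxp4 peaks, and green bars below the line are H3K27ac peaks at a fixed height. Members of the Klf4 span stand among acetylated sites, and those of the Flrt2 and Pcdh7 spans do not.

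The members had 860 distinct nearest genes, of which 559 had 1 member, 189 had 2 and 112 had at least 3. Among protein-coding genes, 597 of 20665 (2.89%) were nearest to a member. Promoter H3K27ac was present at 181 of these 597 genes (30.3%, interval 26.7 to 34.2), an interval that includes the 28.7% of genes that flank a span over 200 kb and begins just above the 26.2% of all genes. For gene-near intergenic peaks the share was 33.4% (31.2 to 35.6). For acetylated intergenic peaks at any distance from a TSS it was 51.3% (44.0 to 58.6). For the acetylated desert peaks alone it was 34.5% of 29 genes, with an interval (17.9 to 54.3) that includes the members' 30.3%. Promoter Foxp4 peaks were found at 41 of the 597 (6.87%, interval 4.97 to 9.20), against 6.85% of all genes.

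Apart from predicted genes, 17 genes were nearest to at least 5 members. Actl7b, Fgf9, Klf4 and Nr2f2 had 6 each. Those with 5 included Acvr2a, Efnb2, Flrt2, the homeobox gene Irx1, the neurotrophin receptor gene Ntrk3, Olfm4, Slc10a2 and the synaptic adhesion gene Slitrk1. Acvr2a, Klf4 and Nr2f2 of the 17 had promoter H3K27ac, beside 28.7% of genes that flank a span over 200 kb. Ntrk3 members had scores of 21 to 41 at 399.7 to 1167 kb, with H3K27ac 605 to 1007 kb away. Irx1 members had scores of 21 to 28 at 115 to 279.9 kb, with H3K27ac 14.0 to 86.7 kb away. Some other genes of the 17 had distances to H3K27ac between those of these 2, such as Nr2f2 with 115 to 432 kb. Others reached beyond them, such as Olfm4 with 872 to 2341 kb and Klf4 with 9.79 to 44.1 kb.

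Named gene groups that often border deserts were counted next. The lists were written with such loci and earlier results in mind, so their counts describe and do not support. A gene beside a long desert can be nearest to a desert peak more easily. Counts are therefore given beside the 21.3% of 2412 genes flanking a span over 200 kb that were nearest to a member, and beside members per Mb of the flanked spans. Among 85 developmental transcription factor genes, 25 (29.4%) were nearest to a member, and 25 of the 73 (34.2%) that flank such a span. They were nearest to 57 members, with a median score of 28. The spans that these genes flank held 179 members in 81.9 Mb, or 2.18 per Mb (interval 1.88 to 2.53), beside 1.28 for all spans. This interval counts members as independent, although they cluster by span: the Zeb2, Klf4 and Nr2f2 spans described above held 16, 12 and 11. The density without them was not computed, and the list was written with earlier results known, so no enrichment is claimed.

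Members of this group varied in number and acetylation. Klf4 and Nr2f2 had 6, Irx1 5, Zeb2 4 and Maf and Nr2f1 3 members. Single peaks of score 41 lay 103 kb from Runx1, which acts in blood and mesenchyme, and 506 kb from the LIM homeobox gene Isl1. Nfia, a factor of brown fat and glial cells, had 2 members with scores of 41 and 27 at 125 to 375 kb. Promoter H3K27ac was present at 12 of the 25 genes, among them Klf4, Nr2f2, Zeb2, Nfia, Maf, Meis1, Tshz1 and Foxp1, and at 24 of all 85 (28.2%). Foxp1 encodes a close relative of Foxp4, and its 2 members had scores of 34 and 28 at 190.1 to 252 kb.

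Neural and adhesion genes were common addresses too, but their deserts were long. Of 22 cadherin and protocadherin genes, which encode calcium-dependent adhesion proteins, 12 (54.5%) were nearest to a member, with scores of 21 to 34. Cdh20 had 4 members, all with a score of 27, and Pcdh20 had 3. Of the 21 that flank a span over 200 kb the count was 12 (57.1%). The median length of those spans was 1.89 Mb against 0.426 Mb for all spans, and they held 1.13 members per Mb (interval 0.880 to 1.43). Of 49 synaptic and neuronal adhesion genes, 18 (36.7%) were nearest to a member, including 17 of 42 (40.5%) that flank a span. Flrt2 and Slitrk1 had 5, Lrrc4c 4, and the latrophilins Adgrl2 and Adgrl3 3 each, and one Adgrl2 member had a score of 49. Their spans held 1.05 members per Mb (interval 0.860 to 1.26), beside 2.18 for the developmental factors, whose members cluster in a few spans.

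Of 34 receptor genes for glutamate, GABA and serotonin, 10 (29.4%) were nearest to a member, and 10 of 24 (41.7%) that flank a span. Grik2, a kainate receptor gene, had 3 members with scores of 22 to 27 at 922 to 1236 kb, and Grin3a had 1 with a score of 41. Their spans held 1.24 members per Mb (interval 0.855 to 1.74). Of 26 potassium channel genes, 6 (23.1%) were nearest to a member, 6 of 23 (26.1%) among those that flank a span, and the density was 0.999 per Mb (0.626 to 1.51). Kcnj2, an inward rectifier, had 3 members, each with a score of 27, at 587 to 814 kb. No gene of these receptor and channel lists, with or without a member, had promoter H3K27ac. It was present at 2 of the 22 cadherin genes (Cdh11 and Pcdh18) and at 2 of the 49 synaptic adhesion genes. The share of potassium channel genes was near the 21.3% of all flanking genes. By members per Mb, the intervals of these neural groups all included or fell below 1.28.

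Of 46 genes for secreted growth factors and morphogens, 8 (17.4%) were nearest to a member, and 8 of 31 (25.8%) that flank a span. Their 16 members had a median score of 33.5 and included the high-scoring peaks at Fgf9 and Angpt1. Kitl, the Kit ligand gene, had members of score 49 and 31 at 107 to 145 kb, and Wnt5a 1 of score 41 at 149.6 kb. None of the 8 had promoter H3K27ac, which was present at only 2 of all 46 (4.35%). The density was 1.66 per Mb (interval 1.19 to 2.25), which includes the value of all spans.

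Of 41 adipocyte genes, 3 (7.32%) were nearest to a member, and 3 of 17 (17.6%) that flank a span, which is near the 21.3%. Ppargc1a, the coactivator PGC-1α of mitochondrial and thermogenic genes, had 3 members with scores of 41, 27 and 21 at 259, 616 and 336 kb, and H3K27ac lay 301 to 658 kb away. Adamts5, an aggrecan-cleaving protease gene, had members of score 35 and 27 at 424 and 121 kb. Zfp521, a zinc finger factor that restrains adipocyte commitment, had members of score 34 and 21 at 473 and 477 kb. The span between Hrh4 and Zfp521 held 7 members in 0.663 Mb, 10.6 per Mb, with 2 H3K27ac peaks. The 19 spans that adipocyte genes flank held 24 members, 2.33 per Mb (interval 1.49 to 3.46). This value rests in part on 1 span, the one between Hrh4 and Zfp521. Without it, 17 members remained in 9.65 Mb, 1.76 per Mb, and the interval (1.03 to 2.82) includes the 1.28 of all spans. Promoter H3K27ac was present at Adamts5 and Zfp521 and not at Ppargc1a, which had a promoter Foxp4 peak.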

How the data were processed

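Peaks came from 3 ChIP-seq libraries of beige adipocytes, assigned by sample title, with 1 library per antibody. The input library was not used here. The labels describe immunoprecipitation with a Foxp4 antibody for all libraries and name none for H3K27ac. The submitters' processing notes name Bowtie2, Picard, SAMtools, MACS2, deepTools 3.3.0 and mm10. How the input entered the calls was not given in the sources used here, nor were settings or thresholds. Per the file headers, each deposited list is a narrowPeak file annotated with HOMER annotatePeaks.pl. The deposited score is a whole number whose scale the files do not state, the authors' own value for each peak. Lists hold no read numbers. Depth is therefore unknown, although it affects how many peaks are called and how high they score.

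From these lists were computed overlaps (at least 1 shared bp), distances between peak edges, gene counts and spans, with pandas 2.3.3 and numpy 2.4.6 in Python 3.11.15, intervals with scipy 1.17.1 and plots with matplotlib 3.10.9. Distances to the TSS are the deposited ones. Shares have exact Clopper-Pearson 95% intervals, medians order-statistic intervals and densities exact Poisson intervals. Genes came from RefSeq GRCm38.p6, and predicted models did not bound spans. Overlap and distance functions were tested on simulated data. Promoter windows are RefSeq sequences of that build, with none on chromosome 18. The wider motif search over peaks was not run, since no genome was used here.

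The members and gene lists were chosen with earlier results of these data known. Named genes followed a rule: the 10 highest-scoring members, the 5 farthest, the 5 widest, the 5 nearest to H3K27ac, the genes with most members, the closest pairs, the edges of the distance limit and up to 5 members per list. Rgs6, Ackr3, Habp2, Ghr, Pde3a, Pik3r1, Bach2, Rps24, the genes naming spans, and the list genes described by their number of members or promoter were named after their values were seen. Some items that this rule names are not reported here. Alternatives varied the distance limit, H3K27ac exclusion, repeats, chromosomes, scores and windows.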

Additional observations from a re-analysis of the deposited data

How the results depend on the processing

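Of 59 alternative values, 30 stayed within the counting interval of the reported value (counts within 1.5 times) and 29 moved. Adding chromosomes X and Y (1351 peaks) or leaving out peaks within 1000 bp of H3K27ac (1323 peaks) moved none. A limit of 50000 bp gave 2061 peaks, 1343 nearest genes, 123152 bp to H3K27ac, 16.2% with a Foxp4 neighbour and 3 genes in the window. A limit of 200000 bp gave 738 peaks, 468 nearest genes, 85.1% on recurrent scores, 306274 bp and 1 gene. Keeping repeats gave 2472 peaks, 84.7% and 212448 bp. The higher-scoring 50% gave 603 peaks, 473 genes, a median score of 34, a width of 350 bp, 79.6% on recurrent scores and 16.6% with a neighbour. Without recurrent scores 240 peaks near 197 genes were left, with a median score of 28, a width of 349.5 bp, 94848 bp to H3K27ac, 19.2% with a neighbour and 3 genes. A neighbour window of 50 kb gave 45.9%, and gene windows of 250 kb and 1 Mb gave medians of 1 and 7. Numbers of peaks and genes follow from how many peaks each setting keeps, and for the other moved values the cause was not tested. The motif alternative was not run. In an alternative added after seeing the data, leaving out the Hrh4 to Zfp521 span lowered the density beside adipocyte genes from 2.33 to 1.76 members per Mb. The lower value stayed within the interval of 1.49 to 3.46. No paired analysis was possible because each antibody has 1 library. Depth is unknown, so a desert without an H3K27ac peak is one in which none was called.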

Other observations

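Desert peaks seldom came in close pairs. Between neighbouring members of a chromosome the median gap was 624233 bp, and of 1327 neighbouring pairs 67 lay within 10000 bp and 6 within 1000 bp. The closest pair was 384 bp apart, with scores of 34 and 21, near the noncoding gene 4930503O07Rik. Pairs 487 bp apart near Gm12724 (scores 40 and 22) and 671 bp apart near Rftn1, a lipid raft protein gene (scores 49 and 21), came next. Near Daam1, members of score 34 and 49 were 727 bp apart, and the higher-scoring one was the peak 6 bp from H3K27ac. Near Klf4, a peak of score 21 lay 915 bp from the widest member.

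Of the 17564 H3K27ac peaks, 585 met the same intergenic, distance and repeat criteria. This number cannot be set against that of Foxp4 peaks, since the numbers called depend on antibody and depth.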
